A study of Mus musculus with 18 samples.

Results

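The genes described here are 9 markers used to tell apart the classes of cortical interneuron that arise from the caudal ganglionic eminence (CGE): Adarb2, Reln, Ndnf, Calb2, Lamp5, Cxcl14, Cnr1, Kit and Synpr. Their probe sets were chosen as those that the array annotation assigns to 1 of these symbols and to no other gene. This gave 16 of the 45101 probe sets on the array, with 6 of the 9 genes on more than 1, and each gene was read from its brightest probe set. All 9 genes passed the filter on dim probe sets and were among the 14292 genes tested. RNA came from mouse cortical interneurons of CGE origin, sorted by flow cytometry for green fluorescence, and was hybridised to 18 arrays in 6 groups of 3. Control groups carried the GAD65-GFP reporter, and the other groups carried the same reporter on an Htr3a-KO background, in which the gene for the ionotropic serotonin receptor subunit 3A is knocked out. Both genotypes were sampled on embryonic day E14.5, when the cells migrate tangentially, at E18.5, when they invade the cortical plate, and at postnatal day 2 (P2), when they settle. Each array held the cells of a pool of at least 4 brains, and the 3 arrays of a group came from different litters, so that the spread between arrays is a spread between pools and not between single animals. The reporter marks GABAergic cells through a GAD65 promoter and does not by itself separate CGE-derived cells from other GABAergic cells.

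The CGE is a transient swelling of the embryonic ventral forebrain whose interneurons travel to the cortex and settle largely in its superficial layers. Adarb2, a member of the ADAR family of RNA-editing enzymes with no established editing activity, is found across most CGE-derived interneurons. Reln, Ndnf and Lamp5 are used for neurogliaform and layer 1 cells, Calb2 (calretinin) for bipolar cells that often also make the peptide VIP, and Cnr1 for basket cells that make cholecystokinin. Cxcl14, Kit and Synpr have each been used as additional labels of CGE-derived classes in the adult cortex. Reln and Calb2 also mark Cajal-Retzius cells, early-born neurons of the cortical surface that are not GABAergic interneurons.

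Of the 9 genes, 7 had an entry in the RefSeq promoter table of the mouse build GRCm38.p6, with 12 start sites between them. The 250 bases before each start were searched on both strands for TATAAA, for the homeodomain core TAATTA, for the nuclear receptor core AGGTCA, for the E-box CANNTG and for CCAAT. None of the windows of these genes held the TATAAA box, against 12.4% of all 32851 windows of that length. The window of Reln and 1 of the 2 windows of Synpr are shown, both of which lie outside the annotated gene. A short stretch of the Adarb2 window is shown around its TAATTA. They are examples of the motifs searched. A window of Kit also lies outside its gene and held none of the motifs. Capitals mark CACGTG, an E-box, in Reln, CCAAT in Synpr and TAATTA in Adarb2.
Reln: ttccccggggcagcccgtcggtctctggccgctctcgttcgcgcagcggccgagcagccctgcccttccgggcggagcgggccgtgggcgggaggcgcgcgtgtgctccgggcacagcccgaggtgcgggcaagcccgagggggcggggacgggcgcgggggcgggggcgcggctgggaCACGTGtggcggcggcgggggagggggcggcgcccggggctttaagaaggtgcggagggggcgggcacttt
Synpr: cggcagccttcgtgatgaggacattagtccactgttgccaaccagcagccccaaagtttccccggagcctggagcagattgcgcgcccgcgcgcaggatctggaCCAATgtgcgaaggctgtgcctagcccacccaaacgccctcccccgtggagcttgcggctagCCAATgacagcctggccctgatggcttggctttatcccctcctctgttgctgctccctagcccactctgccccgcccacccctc
Adarb2: tgtgattggatcTAATTAgactttgcggca
The Reln window lies at chr5:22344706-22344955 on the minus strand and is 80.0% G and C, with its E-box 71 to 66 bases before the start. The Synpr window shown lies at chr14:13284530-13284779 on the plus strand and is 64.0% G and C, with CCAAT at 146 to 142 and at 84 to 80 bases before the start. The other Synpr window holds CANNTG at 250 to 245 and at 181 to 176 bases before its start. The Adarb2 stretch lies at chr13:8202803-8202832 on the plus strand, with TAATTA 51 to 46 bases before the start. The Adarb2 window also holds the motifs marked in the other windows, CCAAT at 59 to 55 (on the opposite strand of the stretch shown, not in capitals) and at 9 to 5, and CANNTG at 67 to 62 bases before the start. Of all windows, 4.84% hold TAATTA, 33.8% hold CCAAT, 66.2% hold CANNTG and 14.0% hold AGGTCA, the last of which was in windows of Cxcl14 and Cnr1. These matches describe the letters of the windows only.

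The arrays were alike in overall brightness. Array medians ran from 6.35 to 6.46 on the log2 scale, no pair of arrays was identical, and correlations within groups ran from 0.984 to 0.996. GABAergic identity was clear in all groups, with no gene of the general GABAergic list below the filter. Array 3 of the E14.5 controls nevertheless differed from arrays 1 and 2. Gad1, an enzyme of GABA synthesis, was at 10.88 against 12.34 and 12.29, and Gad2 at 9.34 against 11.57 and 11.38. Isl1, a marker of striatal projection neurons, was at 8.95 against 11.97 and 12.25, and Ebf1, from the same list, at 7.55 against 10.05 and 10.59. The E14.5 Htr3a-KO arrays had Gad1 at 11.71, 11.85 and 11.21 and Isl1 at 6.21, 9.34 and 10.38. Which of these arrays was unusual was not tested. Excitatory neuron markers were also present throughout. Neurod6, a transcription factor of cortical excitatory neurons, ranged from 8.91 to 12.38 over the 18 arrays. Htr3a was lower in every Htr3a-KO array than in every control array of its age. It passed at E18.5 (-3.51, adjusted p = 7.66e-06) and P2 (-1.94, adjusted p = 0.0109) and missed the threshold at E14.5 (-0.75, adjusted p = 0.708). The labels do not say where this probe set lies relative to the deleted part of the gene.

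**Figure D1:**
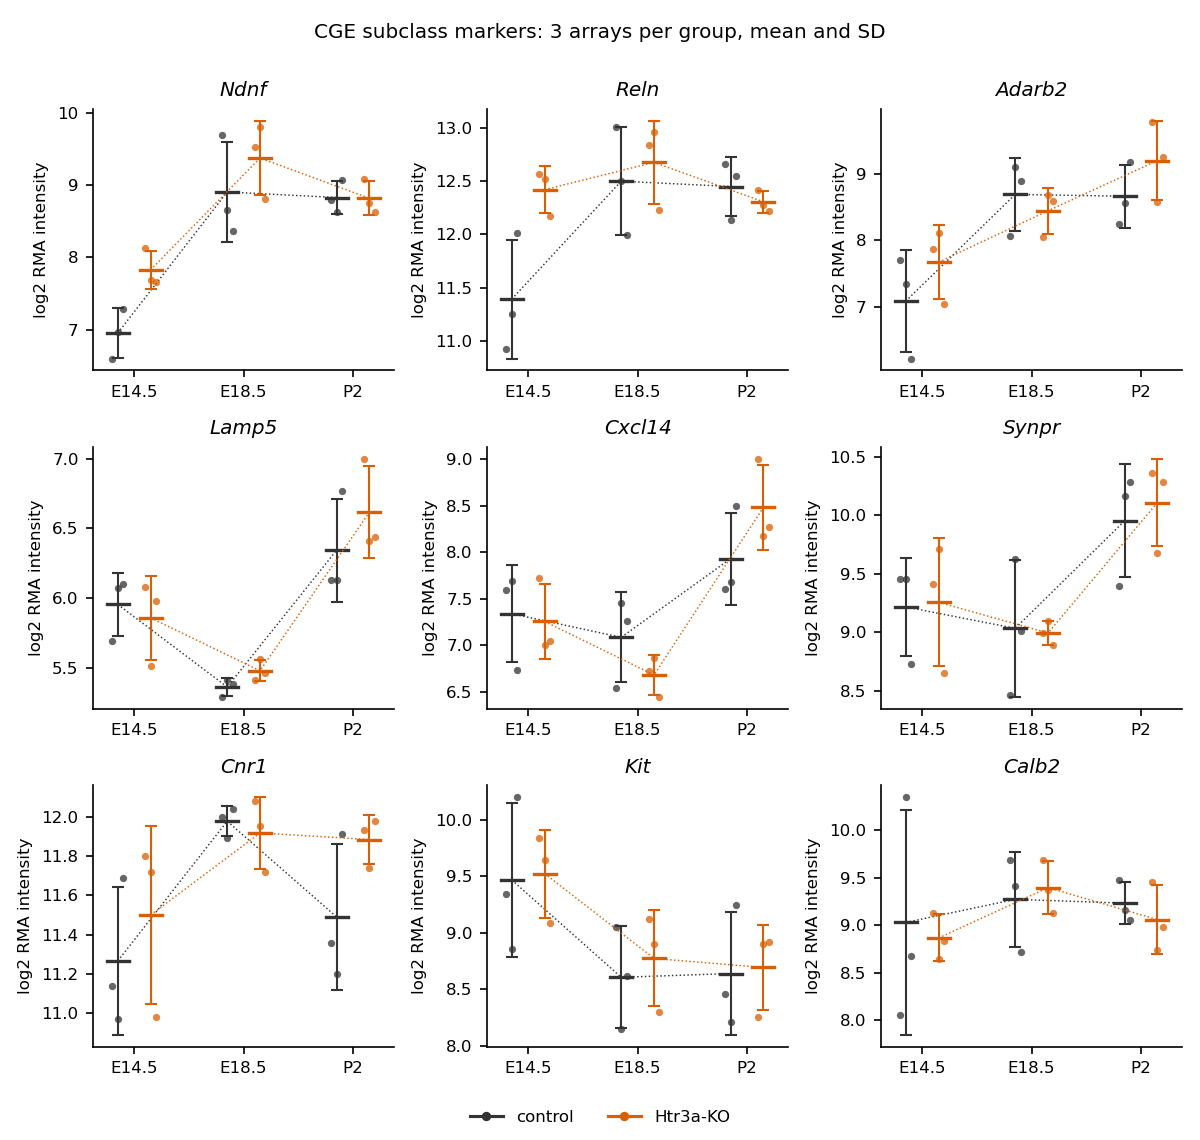
Log2 array level (vertical axis) of each of the 9 genes at E14.5, E18.5 and P2 (horizontal axis), with 1 point per array and bars for the mean and SD of 3 arrays, controls in dark and Htr3a-KO in orange. Ndnf in the controls rises from between 6.60 and 7.29 at E14.5 to between 8.36 and 9.69 at E18.5, while Lamp5, Cxcl14 and Synpr are highest at P2 in both genotypes.

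Between E14.5 and E18.5 in the controls, Ndnf, Adarb2 and Reln passed the threshold as higher and none of the 9 genes passed as lower. All values are log2 array levels and all differences are log2 differences. Adjusted p-values come from limma, a linear model fitted to all genes and 18 arrays, with Benjamini-Hochberg adjustment over the 14292 genes, with 0.05 as the threshold for a call. The 3 that passed of 9 stand beside 11.0% of all genes that passed in this comparison, 6.06% of all genes being higher. The median difference of the 9 genes was 0.24, against -0.0067 for all genes. In bulk samples such as these, more cells of a type and more RNA per cell cannot be told apart.

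Ndnf, on chr6:65671611-65712323, encodes a secreted protein first described as a neuron-derived neurotrophic factor and is a marker of layer 1 neurogliaform cells. Its level in the controls was 6.60, 6.97 and 7.29 on E14.5, 9.69, 8.66 and 8.36 on E18.5, and 8.79, 8.62 and 9.07 on P2. In the Htr3a-KO arrays it was 8.13, 7.69 and 7.66 on E14.5, 9.52, 9.80 and 8.80 on E18.5, and 9.08, 8.75 and 8.62 on P2. In each genotype every E14.5 array was below every later array, and the E18.5 and P2 arrays overlapped. The rise to E18.5 was 1.95 with a standard error (SE) of 0.31 in the controls, which is 3.86-fold (adjusted p = 0.000984). The Htr3a-KO rise was 1.55 (SE 0.31), or 2.92-fold (adjusted p = 0.00448), where Ndnf was the only one of the 9 genes to pass and 15.1% of all genes did. Over the whole span from E14.5 to P2, Ndnf rose 3.66-fold in the controls (adjusted p = 0.000222). Over the same span in the Htr3a-KO groups it rose 1.99-fold (adjusted p = 0.0172). That last value missed the threshold when E14.5 Htr3a-KO array 2 (difference 0.92) or array 3 (0.91) or P2 Htr3a-KO array 1 (0.86) was left out, or with the mean of both Ndnf probe sets (0.68), where the adjusted p was 0.107. A dimmer Ndnf probe set below the filter correlated with the main one at r = 0.86 over the 18 arrays.

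Reln, on chr5:21884454-22344705, encodes reelin, a large secreted glycoprotein that directs the positioning of migrating cortical neurons. Its control levels were 10.92, 11.25 and 12.01 on E14.5, 13.01, 12.50 and 11.99 on E18.5, and 12.66, 12.14 and 12.55 on P2. The Htr3a-KO levels were 12.57, 12.52 and 12.17 on E14.5, 12.84, 12.96 and 12.23 on E18.5, and 12.42, 12.28 and 12.22 on P2. The E14.5 controls were thus the low group, and their highest array, at 12.01, was just above the lowest E18.5 control array, at 11.99. The rise to E18.5 in the controls was 1.11 (SE 0.28), or 2.15-fold (adjusted p = 0.0190), and the rise to P2 was 2.08-fold (adjusted p = 0.00729). The first step in the Htr3a-KO groups was 0.26 and did not pass (adjusted p = 0.554). The control call to E18.5 rested on several arrays. Dropping E14.5 control array 1 (difference 0.87, adjusted p = 0.0941), E14.5 control array 2 (adjusted p = 0.0673) or E18.5 control array 1 (0.85, adjusted p = 0.0927) ended the call, within a range of adjusted p from 0.000897 to 0.0941 over 17 alternatives. A limma fit to only the arrays compared, without the other groups, also ended it (adjusted p = 0.0928). A dim second Reln probe set, below the filter, did not follow the main one (r = -0.07 over 18 arrays), and the mean of both probe sets rose by 0.54 in the controls, which still passed.

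Adarb2, on chr13:8202526-8768762, stood in the controls at 7.70, 7.34 and 6.22 on E14.5, 8.07, 9.11 and 8.90 on E18.5, and 8.25, 8.57 and 9.18 on P2. In the Htr3a-KO arrays it stood at 7.87, 8.11 and 7.04 on E14.5, 8.05, 8.69 and 8.60 on E18.5, and 9.78, 8.58 and 9.25 on P2. The control groups at E14.5 and E18.5 did not overlap, as was so for 30.9% of all genes, and the lowest array of all was E14.5 control array 3, the array that was also low in Gad1 and Gad2. Adarb2 rose 3.05-fold to E18.5 in the controls (difference 1.61, SE 0.41, adjusted p = 0.0203). Without E14.5 control array 3 the difference was 1.17 (adjusted p = 0.0864). Dropping E18.5 control array 2 (1.4, adjusted p = 0.0705) or array 3 (1.5, adjusted p = 0.0756) also ended the call, the adjusted p over 17 alternatives running from 0.0171 to 0.0864. So did a limma fit to only the arrays compared, without the other groups (adjusted p = 0.0617). The same step in the Htr3a-KO groups was 0.77 (adjusted p = 0.209). From E14.5 to P2 Adarb2 rose in both genotypes, 2.99-fold in the controls (adjusted p = 0.00659) and 2.89-fold in the Htr3a-KO groups (adjusted p = 0.00741). A second Adarb2 probe set followed the main one (r = 0.93 over the 18 arrays). It gave 1.73 for the control step, with an adjusted p of 0.0689 in the fit to all probe sets.

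Over the whole span from E14.5 to P2, 3 of the 9 genes passed as higher in the controls, where 39.2% of all genes passed. In the Htr3a-KO groups 5 passed as higher, where 41.5% of all genes passed. The E18.5 to P2 step alone involved other genes of the set. In the controls Lamp5 alone of the 9 passed, as higher, where 19.7% of all genes passed and 9.96% were higher. In the Htr3a-KO groups Cxcl14, Lamp5 and Synpr passed as higher and none of the 9 as lower, where 28.5% of all genes passed and 13.5% were higher. The median difference over the 9 genes was -0.027 in the controls and -0.033 in the Htr3a-KO groups, against -0.037 and 0 for all genes.

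Lamp5, on chr2:136052025-136069917, encodes a brain-specific relative of the lysosome-associated membrane proteins. It was dim on this array, its probe set lying at the 41.9 percentile of means. Control levels were 5.69, 6.07 and 6.10 on E14.5, 5.29, 5.41 and 5.38 on E18.5, and 6.13, 6.13 and 6.77 on P2. Htr3a-KO levels were 6.08, 5.51 and 5.98 on E14.5, 5.41, 5.56 and 5.46 on E18.5, and 7.0, 6.41 and 6.44 on P2. The 6 arrays at E18.5 lay close to the filter level of 5.255, and every P2 array was above every E18.5 array of its genotype. Lamp5 rose 1.98-fold to P2 in the controls (difference 0.98, SE 0.20, adjusted p = 0.0030) and 2.20-fold in the Htr3a-KO groups (difference 1.14, adjusted p = 0.000843). The step before, from E14.5 to E18.5, was -0.59 in the controls (adjusted p = 0.0664) and -0.38 in the Htr3a-KO groups (adjusted p = 0.198), and neither passed. From E14.5 to P2 it rose 1.69-fold in the Htr3a-KO groups (adjusted p = 0.00591), and the control difference of 0.39 did not pass (adjusted p = 0.131).

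Cxcl14, on chr13:56288643-56296811, encodes a secreted chemokine. In the controls it was at 7.59, 7.69 and 6.74 on E14.5, 6.54, 7.46 and 7.26 on E18.5, and 7.61, 7.68 and 8.50 on P2. In the Htr3a-KO arrays it was at 7.72, 7.0 and 7.05 on E14.5, 6.73, 6.87 and 6.45 on E18.5, and 9.0, 8.17 and 8.27 on P2. All P2 arrays were above all E18.5 arrays of their genotype, by a wider margin in the Htr3a-KO groups. The rise to P2 was 3.47-fold there (difference 1.80, SE 0.32, adjusted p = 0.00111), and it was 0.84 (SE 0.32) in the controls, which did not pass (adjusted p = 0.0790). The test of the difference between these 2 steps did not pass (0.95, adjusted p = 0.700). From E14.5 to P2 Cxcl14 rose 2.33-fold in the Htr3a-KO groups (adjusted p = 0.00666). A second Cxcl14 probe set (r = 0.88 with the first) rose to P2 in both genotypes, by 1.70 in the controls (adjusted p = 0.0252) and by 2.24 in the Htr3a-KO groups (adjusted p = 0.00428), and the mean of both passed in the controls too (1.27, adjusted p = 0.0214). Without P2 control array 3 the control difference was 0.56 (adjusted p = 0.301).

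Synpr, on chr14:13284780-13615469, encodes synaptoporin, a membrane protein of synaptic vesicles. Its control levels were 9.46, 9.46 and 8.73 on E14.5, 8.46, 9.63 and 9.01 on E18.5, and 9.40, 10.17 and 10.29 on P2. Htr3a-KO arrays stood at 9.41, 9.71 and 8.65 on E14.5, 8.99, 9.10 and 8.89 on E18.5, and 10.36, 9.68 and 10.29 on P2. The P2 and E18.5 arrays overlapped in the controls and were separate in the Htr3a-KO groups. The rise to P2 passed in the Htr3a-KO groups (difference 1.12, SE 0.33, 2.17-fold, adjusted p = 0.0200). It was lost when any of 4 arrays was left out: E18.5 Htr3a-KO array 1 (1.11) or 3 (1.06) and P2 Htr3a-KO array 1 (0.99) or 3 (1.03), with an adjusted p of up to 0.0787. The control difference of 0.92 (SE 0.33) did not pass (adjusted p = 0.0606). It passed without E18.5 control array 2 (1.22, adjusted p = 0.0276) or P2 control array 1 (1.2, adjusted p = 0.0248). From E14.5 to P2 the Htr3a-KO difference was 0.85, or 1.81-fold (adjusted p = 0.0483), with overlapping groups, and 9 alternatives lost that call, the lowest value being 0.55 without E14.5 Htr3a-KO array 3.

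Cnr1, Kit and Calb2 passed in no step of either genotype taken alone. Cnr1, on chr4:33923171-33948831, encodes the cannabinoid receptor 1, which dampens transmitter release. Control levels were 11.14, 10.97 and 11.69 on E14.5, 12, 11.89 and 12.04 on E18.5, and 11.36, 11.20 and 11.91 on P2. Htr3a-KO levels were 11.80, 11.72 and 10.98 on E14.5, 12.08, 11.95 and 11.72 on E18.5, and 11.93, 11.74 and 11.98 on P2. Every control array at E18.5 was above every control array at E14.5, and the Htr3a-KO groups overlapped at all ages. The control step of 0.71 (SE 0.23) missed the threshold (adjusted p = 0.0549) and leaving out E14.5 control array 3 took it under (0.92, adjusted p = 0.0203). The Htr3a-KO step was 0.42 (adjusted p = 0.215), and the E18.5 to P2 difference in the controls was -0.49 (adjusted p = 0.146).

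Kit, on chr5:75574987-75656722, encodes the receptor tyrosine kinase for stem cell factor. In the controls it was at 9.34, 8.86 and 10.20 on E14.5, 9.05, 8.15 and 8.62 on E18.5, and 8.46, 8.21 and 9.25 on P2. In the Htr3a-KO groups it was at 9.84, 9.64 and 9.09 on E14.5, 9.12, 8.90 and 8.30 on E18.5, and 8.26, 8.90 and 8.92 on P2. It was the only one of the 9 genes whose mean was highest at E14.5 in both genotypes, and the E14.5 and E18.5 arrays overlapped in each. The first step was -0.86 in the controls (SE 0.36, adjusted p = 0.140) and -0.75 in the Htr3a-KO groups (adjusted p = 0.161). Without E14.5 control array 3 the control value was -0.49 (adjusted p = 0.462).

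Calb2, on chr8:110142526-110168212, encodes the calcium-binding protein calretinin. Control levels were 8.06, 10.35 and 8.68 on E14.5, 9.69, 9.41 and 8.72 on E18.5, and 9.48, 9.16 and 9.06 on P2. Htr3a-KO levels were 9.13, 8.64 and 8.83 on E14.5, 9.69, 9.37 and 9.13 on E18.5, and 9.46, 8.74 and 8.98 on P2. E14.5 control array 2 was the highest of all 18 and array 1 of the same group the lowest, so that this group spanned the others. The first step was 0.24 in the controls, with a 95% interval of the difference from -0.64 to 1.13 (adjusted p = 0.781), and it was 0.53 in the Htr3a-KO groups, with an interval from -0.36 to 1.42 (adjusted p = 0.398). Lhx5, a transcription factor of Cajal-Retzius cells, ran in the same order over the 3 E14.5 control arrays, at 4.93, 6.78 and 5.59.

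**Figure D2:**
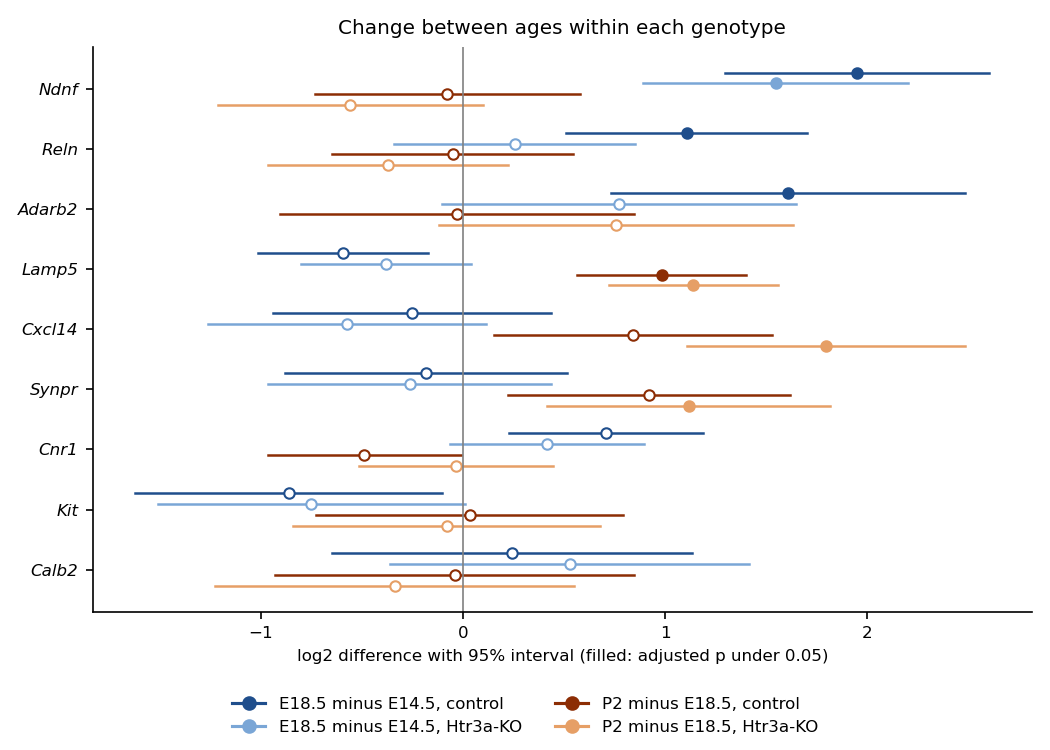
Log2 difference of each of the 9 genes (horizontal axis, points with 95% intervals) in the E14.5 to E18.5 and the E18.5 to P2 steps of controls and Htr3a-KO, filled where the adjusted p is under 0.05. Filled points of the first step are Ndnf in both genotypes with Adarb2 and Reln in the controls, and those of the second step are Lamp5 in both genotypes with Cxcl14 and Synpr in the Htr3a-KO groups.

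The sign of each step was the same in controls and Htr3a-KO for 9 of the 9 genes from E14.5 to E18.5, against 70.1% of all genes. From E18.5 to P2 it was the same for 7 of 9, against 75.4% of all genes. The mean of both genotypes was also tested, a comparison added after the data had been seen. From E14.5 to E18.5 this called 6 of the 9 genes, where 27.7% of all genes passed, 12.2% higher and 15.5% lower. Ndnf rose 3.36-fold (adjusted p = 4.56e-05), Adarb2 2.28-fold (adjusted p = 0.00713), Reln 1.6-fold (adjusted p = 0.0184) and Cnr1 1.48-fold (adjusted p = 0.0162). Lamp5 fell by 0.49 (SE 0.14, adjusted p = 0.0173) and Kit fell by 0.81 (SE 0.25, 1.75-fold lower, adjusted p = 0.0269), while Calb2 did not pass (0.39, adjusted p = 0.358). Reln no longer passed when E18.5 control array 1 (0.55) or E18.5 Htr3a-KO array 2 (0.61) was dropped, or with the mean of both Reln probe sets (0.27, adjusted p = 0.0737). Kit no longer passed when any of 5 arrays was dropped, namely E14.5 control array 3 (-0.62), E14.5 Htr3a-KO array 1 (-0.73) or 2 (-0.78), E18.5 control array 2 (-0.69) or E18.5 Htr3a-KO array 3 (-0.69), with an adjusted p of up to 0.0684. Calb2 did pass once its highest array, E14.5 control array 2, was dropped (0.72, adjusted p = 0.0155).

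From E18.5 to P2, the mean of both genotypes called 3 of the 9 genes, where 39.7% of all genes passed and 17.6% were higher. Lamp5 rose 2.09-fold (adjusted p = 3.59e-05), Cxcl14 2.5-fold (adjusted p = 0.000364) and Synpr 2.03-fold (adjusted p = 0.00275). Whether the second step differed from the first, which shares the E18.5 arrays with it, was tested directly, and 4 of the 9 genes passed, where 17.7% of all genes did. The second step was lower than the first for Ndnf, by a difference of -2.07 (SE 0.38, adjusted p = 0.00227). It was higher for Lamp5 (1.55, adjusted p = 0.000854), Cxcl14 (1.73, adjusted p = 0.00876) and Synpr (1.24, adjusted p = 0.0441), and 15 alternatives lost the Synpr call, with an adjusted p of up to 0.132. For Cnr1 (-0.82, adjusted p = 0.0507), Reln (-0.89, adjusted p = 0.0811) and Adarb2 (-0.83, adjusted p = 0.261) the difference between the steps did not pass. Most neighbouring groups in the order of a gene's levels overlapped. The exceptions were Reln in the E14.5 controls, below the next group, Ndnf in the E14.5 controls, below the E14.5 Htr3a-KO group, which was in turn below P2 Htr3a-KO, and Lamp5 in the E14.5 controls, below the P2 controls.

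Between the genotypes, none of the 9 genes passed at any age. At E14.5, 0 of 9 passed beside 0.0140% of all genes, and 2 of 9 had an unadjusted p under 0.05, as 5.86% of all genes did. At E18.5, 0 passed beside 0.0210% of all genes and 0 had an unadjusted p under 0.05, against 12.9% of all genes. At P2, 0 passed beside 0.0350% and 0 had an unadjusted p under 0.05, against 7.58%. Over the mean of the 3 ages 0 passed beside 0.294%, with 2 at an unadjusted p under 0.05, against 11.2% of all genes. The test that the genotype difference varies with age called 0 of the 9 genes beside 0.00% of all genes, with 1 of the 9 at an unadjusted p under 0.05, against 7.23% of all genes.

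Reln and Ndnf, the 2 genes below 0.05 before adjustment at E14.5, were also the 2 whose E14.5 groups did not overlap, as was so for 9.01% of all genes. Every E14.5 Htr3a-KO array was above every E14.5 control array for both. The Reln difference was 1.03 (SE 0.28, 95% interval 0.43 to 1.62), or 2.04-fold, with an adjusted p of 0.659. With E14.5 control array 3 left out it was 1.33, under the threshold (adjusted p = 0.0301), and with weights that let the arrays differ in quality it was 1.23 and passed (adjusted p = 0.0461), whereas the mean of both Reln probe sets gave 0.62 (adjusted p = 0.619). Of all genes, 135 passed with that array left out and 119 with the weights, against 2 in the main fit. Averaged over the 3 ages the Reln difference was 0.35 (adjusted p = 0.440), and the test of its change with age had F = 4.67 (adjusted p = 0.691). For Ndnf the E14.5 difference was 0.87 (SE 0.31, 95% interval 0.22 to 1.53, adjusted p = 0.710), the E18.5 difference 0.47 (95% interval -0.18 to 1.12, adjusted p = 0.542) and the mean over ages 0.44 (adjusted p = 0.384). Leaving out E18.5 control array 1 or 3 moved the Ndnf difference at E18.5 to 0.86 or 0.20, neither of which passed.

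The remaining differences at single ages had 95% intervals that included 0. Adarb2 differed by 0.59 at E14.5 (95% interval -0.29 to 1.46) and by 0.54 at P2 (-0.34 to 1.41). Cxcl14 differed by 0.55 at P2 (95% interval -0.14 to 1.24, adjusted p = 0.701) and Cnr1 by 0.39 at P2 (-0.09 to 0.87, adjusted p = 0.701). At P2 the groups overlapped for all 9 genes, where 9.14% of all genes did not overlap, and at E18.5 they overlapped for all 9 as well, where 20.7% did not. The same intervals reach differences as large as some of the age steps, so these arrays do not show that the genotypes were alike.

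**Figure D3:**
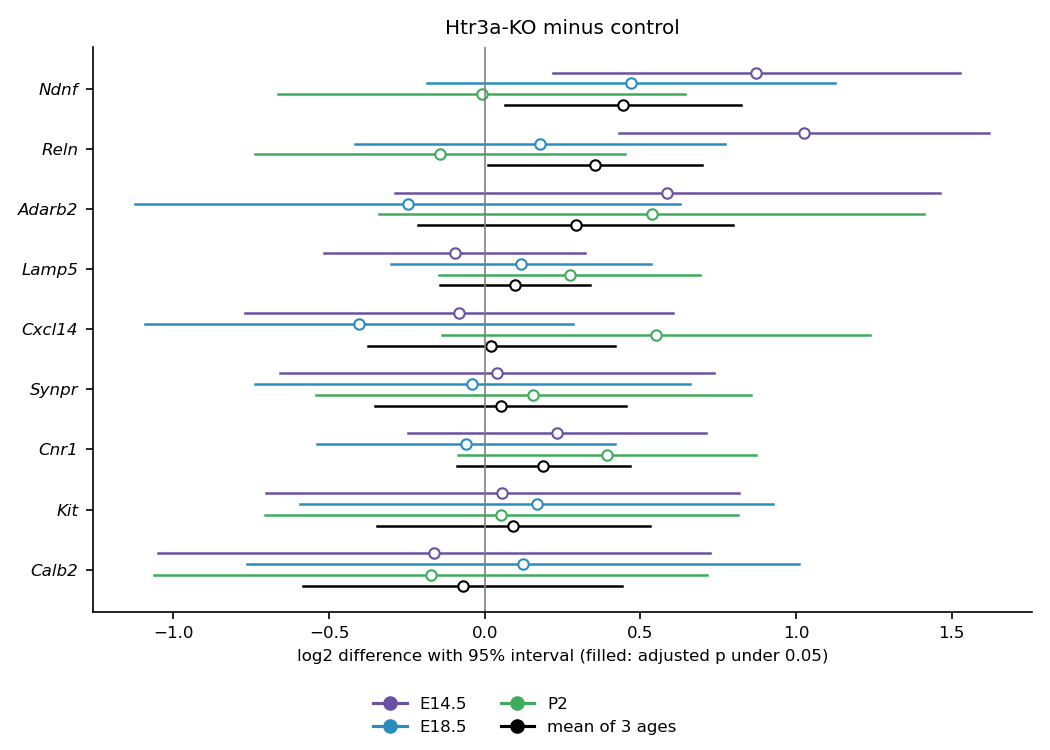
Log2 difference of Htr3a-KO minus control for each of the 9 genes (points with 95% intervals) at E14.5, E18.5, P2 and as the mean of the 3 ages. No point is filled, since no adjusted p is under 0.05, and Reln (1.03) and Ndnf (0.87) at E14.5 have intervals above 0.

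The genes whose levels most resembled those of the 9 were sought among the brighter genes by Pearson's r over the 18 arrays, which share age, genotype and pool, so these values are descriptions. Ndnf was most like Kctd4 (r = 0.92), Frem2 (0.91) and Opcml (0.91). Reln was most like Car10 (0.89) and Gdf5 (0.89), and then Ndnf itself (0.85). Lamp5 was most like Ptprg (0.92) and Crh (0.91), the gene for corticotropin-releasing hormone, a peptide of some cortical interneurons. Adarb2 was nearest to Nr3c2 (0.92), the mineralocorticoid receptor gene, Kit to Cmya5 (0.88), Cnr1 to Pdia3 (0.83), Cxcl14 to Susd4 (0.9) and Synpr to Bak1 (0.87). Calb2 had the weakest nearest neighbours of the 9, Pcdhb15 and Lhx5 (both 0.65). Synpr and Cxcl14 resembled each other (0.86), as did Lamp5 and Cxcl14 (0.86), which are the genes that rose after E18.5.

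Once each group's mean was subtracted, leaving only how the arrays of a group varied among themselves, the neighbours changed. Reln was nearest to Dsp (r = 0.90). Reln and Ndnf still varied together (0.87), and Trp73, a transcription factor gene typical of Cajal-Retzius cells, was as near to Reln (0.87). Calb2 was nearest to Lhx5 (0.89), then to Gpr151 (0.79) and to Ebf3, also a Cajal-Retzius marker (0.78). Lhx1, Nhlh2, Ebf2 and Cacna2d2 were not among the 3 nearest genes of Reln or Calb2. Lhx5 was dim, at 5.01 to 5.22 in P2 Htr3a-KO. Its highest array, E14.5 control array 2 (6.78), was also the highest for Calb2 (10.35). How far their correlation rests on that array was not tested. Adarb2 and Synpr varied together (0.88) more than their levels did (0.64). Cnr1 and Kit, at 0.02 in level, had 0.82 within groups, and Lamp5 and Synpr, at 0.69 in level, had 0.10.

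**Figure D4:**
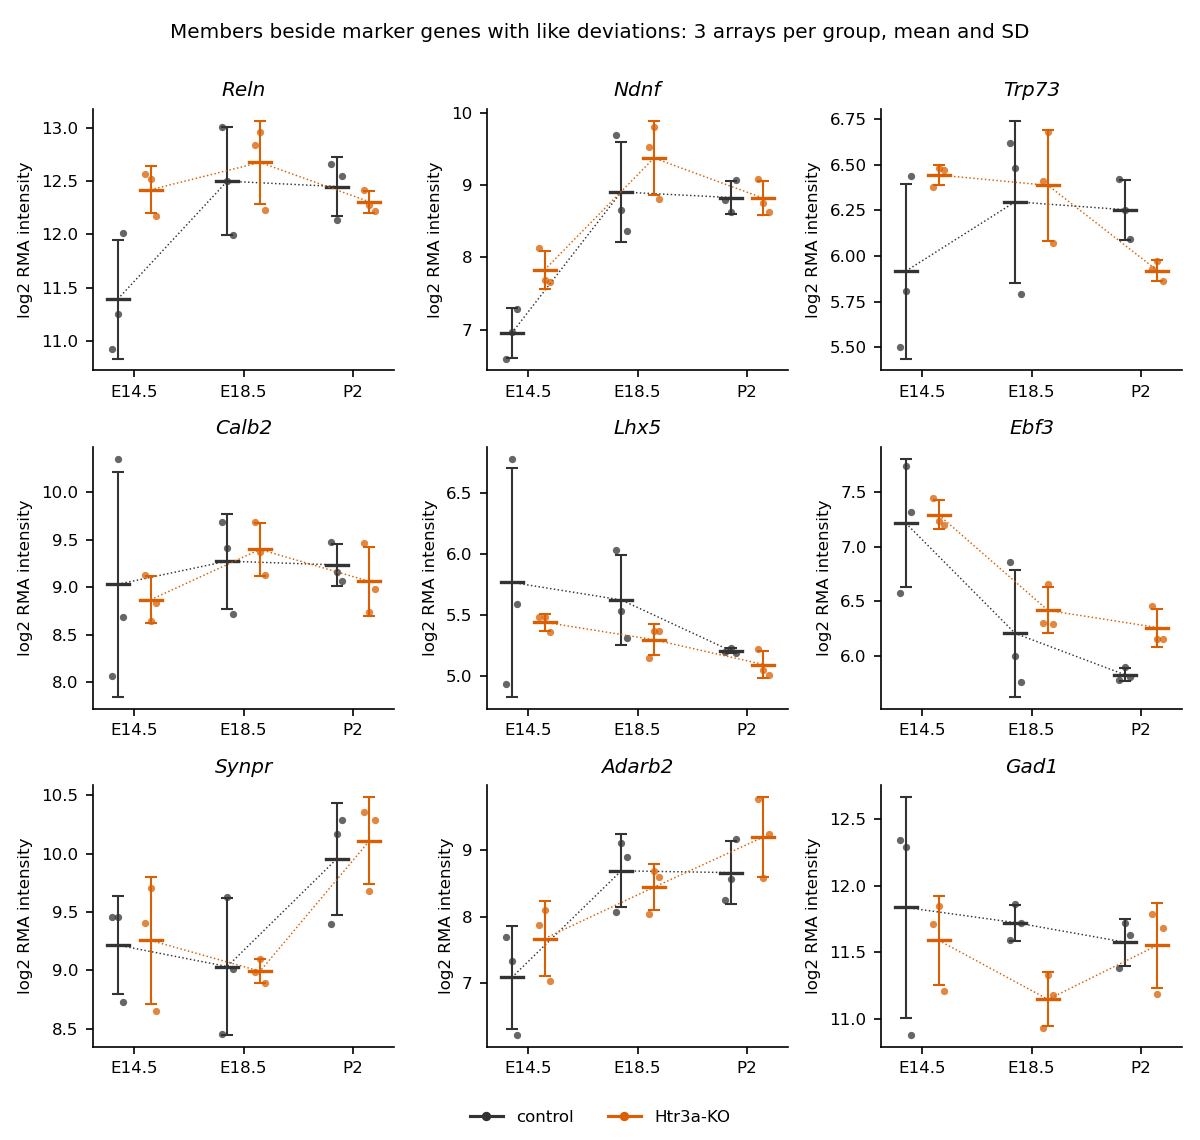
Log2 array level (vertical axis) at each age (horizontal axis), with points per array, mean and SD for controls in dark and Htr3a-KO in orange, of Reln and Ndnf with the Cajal-Retzius marker Trp73, of Calb2 with the Cajal-Retzius markers Lhx5 and Ebf3, and of Synpr and Adarb2 with the GABA synthesis gene Gad1. Calb2 and Lhx5 are both highest in E14.5 control array 2 within their group (10.35 and 6.78), and Adarb2 and Gad1 are both lowest in E14.5 control array 3 (6.22 and 10.88).

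Other CGE interneuron genes were called in both steps. Their list includes Htr3a itself, with means at E14.5, E18.5 and P2 of 8.04, 10.34 and 8.79 in the controls and 7.30, 6.83 and 6.84 in Htr3a-KO. Of 15 tested, 5 rose and 2 fell from E14.5 to E18.5 in the controls, beside 11.0% of all genes called. From E18.5 to P2 in the controls 3 rose and 1 fell, beside 19.7%. In the Htr3a-KO groups 1 rose and 1 fell in the first step, beside 15.1%, and 5 rose and 0 fell in the second, beside 28.5%. Crh fell by 1.95 to E18.5 in the controls (adjusted p = 0.00169) and then rose by 3.69 to P2 (adjusted p = 5.78e-06), the same order of signs as Lamp5. Vip, the gene for vasoactive intestinal peptide, rose by 1.79 to P2 in the controls (adjusted p = 0.00236) and by 2.52 in the Htr3a-KO groups (adjusted p = 0.000161). Cck, the gene for cholecystokinin, rose by 1.51 to E18.5 in the controls (adjusted p = 0.00161). Prox1, a transcription factor that CGE-derived interneurons keep, rose by 1.49 in the first step of the Htr3a-KO groups (adjusted p = 0.0205).

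The genes that act with 3 of the markers were followed in the same way. Of 10 partners of reelin, including its receptors and intracellular adaptor, 1 rose in the controls from E14.5 to E18.5, beside 11.0% of all genes called. This was Dab1, the adaptor (0.98, adjusted p = 0.0197). None rose in the first step of the Htr3a-KO groups, where 15.1% of all genes passed. In their second step, where 28.5% passed, 1 fell, which was Lrp8, a reelin receptor (-0.90, adjusted p = 0.00115). Of 8 genes of the endocannabinoid pathway, 4 rose from E18.5 to P2 in the controls, where 9.96% of all genes were higher. In the Htr3a-KO groups 3 did so, where 13.5% were higher. These included Mgll, the lipase that degrades the ligand 2-arachidonoylglycerol, at 1.36 (adjusted p = 0.00495) and 1.51, and Abhd6, also a lipase, at 0.93 (adjusted p = 0.00122) and 0.90, while Cnr1 itself did not pass in that step. Of 7 partners of Kit, 1 rose from E14.5 to E18.5 in the mean of both genotypes, the step in which Kit fell. Of all genes, 27.7% passed in that comparison and 12.2% were higher. The partner was Pik3r1, a subunit of phosphoinositide kinase (0.44, adjusted p = 0.0236).

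Relatives of the markers from the same gene families did not follow them throughout. Of 12 tested, 3 rose and 1 fell from E14.5 to E18.5 in the mean of both genotypes, where 27.7% of all genes passed. From E18.5 to P2, 3 rose and 2 fell, where 39.7% of all genes passed. Lamp1 and Lamp2, lysosomal membrane proteins of wide distribution, rose from E18.5 to P2 by 0.64 (adjusted p = 6.98e-06) and 0.59 (adjusted p = 5.14e-05), the step at which Lamp5 rose by 1.06. Syngr1 and Syngr3, synaptic vesicle proteins related to synaptoporin, rose in the earlier step, by 0.82 (adjusted p = 0.000438) and 0.86 (adjusted p = 0.000218), when Synpr did not pass. Calb1, for the calcium-binding protein calbindin, fell by 1.35 in that step (adjusted p = 0.0022). Cxcl12, a chemokine that guides migrating interneurons, fell by 0.46 from E18.5 to P2 (adjusted p = 0.0163) while Cxcl14 rose.

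Markers of other cell types moved with age beside these genes. Beside 11.0% (controls) and 15.1% (Htr3a-KO) of all genes called from E14.5 to E18.5, 3 of 7 Cajal-Retzius markers fell in each genotype. None of the 7 rose, and all were above the filter. Their summed level, the log2 of the sum of their linear signals, ran from 9.98 to 10.4 in the E14.5 controls, 10.5 to 10.7 in E14.5 Htr3a-KO, 9.37 to 10.3 in the E18.5 controls, 9.73 to 10.9 in E18.5 Htr3a-KO, 9.20 to 9.46 in the P2 controls and 9.58 to 9.74 in P2 Htr3a-KO. Between the genotypes at E14.5, the comparison in which Reln and Ndnf did not overlap, 0 of the 7 passed in limma's test. An unadjusted p under 0.05 was found for 3 of the 7, as for 5.86% of all genes. Their median difference over the 7 was 0.077 against 0.01 for all genes. The summed level was higher in every Htr3a-KO array at that age, and Cacna2d2, a calcium channel subunit, carried this, at 8.88, 8.0 and 8.91 in the controls and 9.58, 9.55 and 9.42 in Htr3a-KO. Without Cacna2d2 the sum ran from 9.08 to 10.04 in the E14.5 controls and from 9.61 to 9.75 in E14.5 Htr3a-KO. These groups thus overlapped. Mean Cacna2d2 stayed higher in the older Htr3a-KO groups: 9.5 against 8.59 on E18.5, 8.87 against 7.96 on P2. Its unadjusted p in limma's test was under 0.05 for each age. The sum without it overlapped on E18.5 (controls 8.38 to 9.71, Htr3a-KO 8.81 to 9.61). On P2 that sum was lower in Htr3a-KO (8.39 to 8.42) than in the controls (8.51 to 8.79). Averaged over the 3 ages, 1 of the 7 passed, Cacna2d2, as higher in Htr3a-KO, beside 0.294% of all genes. At E14.5 the other markers went both ways. Trp73 was at 5.50, 5.81 and 6.44 in the controls and 6.38, 6.48 and 6.47 in Htr3a-KO, whereas Lhx1 was lower in every Htr3a-KO array (6.15, 6.27 and 6.34) than in every control array (6.88, 6.83 and 6.45). Lhx5 had a mean of 5.77 in the controls and 5.44 in Htr3a-KO, and the means of Nhlh2 (8.39 and 8.53), Ebf2 (6.38 and 6.36) and Ebf3 (7.21 and 7.29) were within the spread of their control arrays. From E14.5 to E18.5 in the controls, the step in which Reln and Ndnf rose, the median difference of the 7 was -0.47. Mean Trp73 went from 5.92 to 6.30 in that step, without a call. The part of Cajal-Retzius cells in the E14.5 values of Reln, Ndnf and Calb2 was not tested.

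Of all genes, 27.7% passed from E14.5 to E18.5 in the mean of both genotypes and 15.5% were lower. General GABAergic genes fell in that step in 4 of 7 cases, and 0 of 7 rose. Their summed level ran from 12.3 to 13.996 in the E14.5 controls and from 12.8 to 13.4 in E14.5 Htr3a-KO, against 12.7 to 13.3 and 12.5 to 12.8 at E18.5 and 12.7 to 12.9 and 12.1 to 12.8 at P2. Striatal projection neuron markers fell in that step in 6 of 9 cases, with a summed level of 11.7 to 14.0 in the E14.5 controls, 11.0 to 12.5 in E14.5 Htr3a-KO, 10.6 to 11.3 in the E18.5 controls and 11.2 to 11.6 in E18.5 Htr3a-KO, and with Drd2 below the filter. Oligodendrocyte lineage markers rose in that step in 6 of 7 cases and fell in 1 (median 1.96), where 12.2% of all genes were higher. Their summed level at E14.5 was 10.02 to 10.3 in the controls and 10.05 to 10.3 in Htr3a-KO. At E18.5 it was 12.4 to 13.4 and 13.5 to 13.8. Of 9 astrocyte markers, 3 rose and 0 fell. Adarb2, Ndnf and Reln rose in the same step, and the part of a changing cell mixture in the age steps was not tested.

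Markers of several glial and other non-neuronal cell types rose from E18.5 to P2, the step in which Lamp5, Cxcl14 and Synpr rose. In the mean of both genotypes, 39.7% of all genes passed in that step and 17.6% were higher. Of 9 microglia markers 0 passed there (median 0.93). Their summed levels were 9.66 to 11.1 (controls) and 10.2 to 10.7 (Htr3a-KO) before, and 10.7 to 13.6 and 10.2 to 11.1 after. All 9 astrocyte markers passed from E18.5 to P2 in the mean of both genotypes, and none of them was below the filter. Their summed level went from 10.7 to 11.9 in the E18.5 controls and 12.1 to 12.4 in E18.5 Htr3a-KO to 14.3 to 15.0 in the P2 controls and 14.7 to 15.2 in P2 Htr3a-KO. Of 7 oligodendrocyte lineage markers, 6 rose in that step, from summed levels of 12.4 to 13.4 and 13.5 to 13.8 to levels of 14.2 to 14.4 and 14.3 to 14.8. Of 5 meningeal markers tested, 4 rose in that step (median 0.94), from summed levels of 10.4 to 11.2 and 10.7 to 10.9 to levels of 11.6 to 11.9 and 11.7 to 12.2, with Col1a1 below the filter. Of 8 endothelial and mural markers tested, 3 rose, from 10.04 to 10.997 and 10.8 to 11.5 to levels of 11.2 to 12.2 and 10.8 to 12.7, with Pecam1 below the filter. Excitatory neuron markers fell in 7 of 10 cases, from 13.3 to 13.5 and 13.3 to 13.8 down to 12.2 to 12.6 and 11.0 to 12.3. Of 10 markers of interneurons from the medial ganglionic eminence, 0 rose and 2 fell, with summed levels of 12.4 to 12.8 and 12.5 to 12.7 before and 12.4 to 12.8 and 12.2 to 12.5 after. The part of glial, meningeal and vascular cells in the P2 rises of Lamp5, Cxcl14 and Synpr was not tested.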

How the data were processed

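Levels were measured on Affymetrix mouse whole-genome expression arrays. The authors deposited log2 values per probe set, made with Partek software by RMA (background correction, quantile normalization and probe summary), per the submitters' processing notes and the labels, to 2 decimals. Precision is set by 3 arrays per group. From these values, control probe sets and those with several genes or none were left out, each gene was represented by its probe set with the highest mean, and genes in the lowest 30% of means (under 5.255) were left out. A model with 1 mean per group was fitted to all 18 arrays with limma 3.58.1 in R 4.3.3 (12 residual degrees of freedom), after it was tested on simulated data. The members, gene lists and tests were chosen with earlier results of these data known. By rule, up to 3 genes of another list were named per comparison (smallest p past the threshold), and up to 3 correlates per marker. Alternatives changed the filter, probe set rule, centring, array weights, arrays fitted, threshold, replicate block and array left out.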

Additional observations from a re-analysis of the deposited data

How the results depend on the processing

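Ndnf from E14.5 to E18.5 in both genotypes, Lamp5 from E18.5 to P2 in both, and Cxcl14 in the Htr3a-KO groups kept their calls in each alternative that tested them. With array weights, the count of the 9 genes that passed went from 3 to 5 in the first step of the controls and from 1 to 3 in their second step. It went from 1 to 2 and from 3 to 5 in the 2 steps of the Htr3a-KO groups, and from 0 to 1 (Reln) between the genotypes at E14.5. The same weights moved the count over all genes from 1571 to 3166 in the first control step. They moved it from 2163 to 4795 in the first Htr3a-KO step and from 2 to 119 between the genotypes at E14.5. At an adjusted p under 0.10, 2391 of all genes passed in the first control step. The count of the 9 genes was then 5 and 3 in the 2 control steps, and 5 in the controls from E14.5 to P2. Averaging the probe sets of each gene gave 2 in the second control step, and leaving out the lowest 50% of means gave 0 there, since Lamp5 was then not tested. Leaving out each array in turn gave 1 to 2 in the second control step, 3 to 5 from E14.5 to P2 in each genotype and 0 to 1 between the genotypes at E14.5. The Calb2 step to E18.5 in the controls turned from 0.24 to values between -0.24 and 0.90 when an array was left out, and the Reln step in the Htr3a-KO groups was -0.0017 with the mean of both probe sets, where the second, dim probe set enters. The cause was otherwise not tested. Same-numbered arrays did not deviate together: of 9 pairs between the genotypes, correlations ran from -0.54 to 0.30, 2 were over 0.1 and 1 was the best match of its array. With the replicate number as a block, the Synpr call from E14.5 to P2 in the Htr3a-KO groups was lost (adjusted p = 0.0515), which left 4 of 9 genes, and no other call of the 9 genes changed. Counts over all genes moved by over 1.5 times: 1571 became 916 to 3166 and 2818 became as low as 1665 in the control steps. In the first Htr3a-KO step 2163 became 928 to 4795. With all probe sets tested, 4903 passed in the second control step and 5187 in the first Htr3a-KO step, which are counts of probe sets and not of genes. Between the genotypes, 2 became 0 to 135 at E14.5, 3 became 2 to 876 at E18.5 and 42 became 17 to 318 over the mean of ages. The dim Lamp5 probe set limits how well its low at E18.5 is measured.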
